A study of Mus musculus with 6 samples.

Results

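The Rab GTPases of Met-1 mammary carcinoma cells were described with and without induction of miR-200c. The members were all genes of the deposited table whose symbol is Rab followed by a number, with or without a letter. This rule found 57 genes of 43548 gene identifiers. Met-1 is a mammary carcinoma line from an advanced tumor of the MMTV-PyMT model on the FVB/nJ strain, and its TripZ-200c form holds an integrated lentivirus from which the miR-200c precursor is made when doxycycline (Dox) is present. mRNA of these cells was sequenced after 48 h in RPMI with serum and vehicle (Minus Dox, 3 libraries) or with 1 µg/mL Dox (Plus Dox, 3 libraries). Both groups carry the vector, and the cells are 1 selected clone. Cells with the empty vector were not analysed here, so an effect of Dox itself and an effect of miR-200c cannot be told apart. The comparison asks which Rab genes differ in mRNA level once miR-200c is restored, and whether Rabs of epithelial cells such as Rab25 differ in this from those found in every cell.

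Rab proteins are small GTPases that mark the membranes of the secretory and endocytic pathways. Exchange factors load them with GTP, GTPase activating proteins switch them off, effectors read the active form, and GDP dissociation inhibitors take the inactive form off the membrane. Most Rabs are found in nearly every cell, whereas Rab25, a relative of Rab11a and Rab11b in recycling endosomes, and Rab17 are known for their expression in epithelia. The miR-200 family represses the transcription factors ZEB1 and ZEB2, which bind E-box motifs and repress epithelial genes.

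The sequences that bear on this comparison are the microRNA itself, its matching sites in Rab mRNAs, and the starts of the epithelial Rab genes. The mature microRNA induced by the vector is given first, from RefSeq, with its seed (bases 2 to 8) in capitals. Its own gene copy is at chr6:124718324-124718346 on the minus strand of GRCm38.p6.
mmu-miR-200c-3p: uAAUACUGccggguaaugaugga
The site that pairs with all bases of the seed is CAGTATT. It was searched on the transcribed strand in the longest annotated 3′ UTR of each gene, in the GENCODE annotation of GRCm38. The Rab genes that were both lower with Dox and matched were Rab7 (chr6:87999674-87999703, minus strand) and Rab8b (chr9:66845128-66845157, minus strand), and the sites of Rab35 (chr5:115646590-115646619 and chr5:115646894-115646923, plus strand), which did not pass the test, are shown beside them. Capitals mark the match.
Rab7: ccagctagcggCAGTATTctgtacagtaga
Rab8b: gatttttgcagCAGTATTagtggttcagtg
Rab35, first site: cacatcgggctCAGTATTtttagaaaaggt
Rab35, second site: gtgggggcagcCAGTATTcacctagccacc
The promoters of Rab25 (chr3:88548230-88548529, minus strand) and Rab17 (chr1:90967618-90967917, minus strand) are shown because both are epithelial Rabs with the E-box CAGGTG, and that of Rab3a (chr8:70754852-70755151, plus strand) because it was the only one with this motif among the Rab genes past the test that were matched to a promoter window, which Rab2a was not. Each window holds 250 bases before the start of transcription and 50 after it, from RefSeq on GRCm38.p6, and capitals mark CAGGTG or its reverse complement CACCTG.
Rab25: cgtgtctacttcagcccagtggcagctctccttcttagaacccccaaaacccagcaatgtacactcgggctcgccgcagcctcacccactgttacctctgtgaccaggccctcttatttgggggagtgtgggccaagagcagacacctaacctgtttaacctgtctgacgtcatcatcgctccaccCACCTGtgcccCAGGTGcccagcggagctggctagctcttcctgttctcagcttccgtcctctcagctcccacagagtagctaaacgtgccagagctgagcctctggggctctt
Rab17: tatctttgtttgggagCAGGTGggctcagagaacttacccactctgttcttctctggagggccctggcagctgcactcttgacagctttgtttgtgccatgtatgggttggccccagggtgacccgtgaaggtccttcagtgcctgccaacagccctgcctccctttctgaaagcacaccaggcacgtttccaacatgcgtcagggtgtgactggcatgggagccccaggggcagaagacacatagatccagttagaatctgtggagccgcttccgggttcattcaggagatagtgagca
Rab3a: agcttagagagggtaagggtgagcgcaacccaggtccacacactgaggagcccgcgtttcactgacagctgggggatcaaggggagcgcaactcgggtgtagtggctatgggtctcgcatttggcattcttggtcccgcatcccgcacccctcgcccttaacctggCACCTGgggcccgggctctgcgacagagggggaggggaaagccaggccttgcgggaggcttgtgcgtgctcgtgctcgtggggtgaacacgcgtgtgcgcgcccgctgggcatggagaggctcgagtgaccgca
The motif stands 64 and 53 bases before the start of Rab25, with 1 match on each strand, 234 bases before that of Rab17 and 84 bases before that of Rab3a. A second start of Rab3a had no match. The printed windows of Rab17 and Rab3a lie inside the GENCODE spans of these genes (chr1:90958133-90969661 and chr8:70754679-70758677), so their starts are not the outermost ones annotated. That of Rab25 reaches beyond its GENCODE span (chr3:88542029-88548300), but the start used lies just inside it and is not the outermost either.

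The deposited values are FPKM, fragment estimates scaled to transcript length and to the mapped reads. The number of reads is therefore unknown, and relative depths estimated from the lowest values ran from 0.921 to 1.49. Genes whose mean reached 1 FPKM were compared on log2(FPKM + 0.1) with limma, and p-values were adjusted over all 12879 genes tested with a threshold of 0.05. On this scale the change of low genes is understated. Zeb1 was at 41.0, 42.1 and 42.3 FPKM in the Minus Dox libraries and at 19.8, 20.3 and 23.6 FPKM in the Plus Dox libraries, and Zeb2 was at 29.4, 30.7 and 27.9 against 9.04, 7.82 and 8.0 FPKM. Both fell (log2 fold changes -0.98 and -1.81, limma adjusted p = 3.62e-04 and 4.48e-05). Cdh1, which encodes E-cadherin, was below the filter at 0.0419 to 0.0776 FPKM without Dox and at 0.554 to 1.24 FPKM with Dox (adjusted p = 0.0125 in limma without the filter). The 6 markers of mammary carcinoma cells fixed for the check (Epcam, Krt8, Krt18, Krt14, Krt5 and Cdh1) summed to 91.6 to 97.0 FPKM without Dox and to 369 to 406 FPKM with Dox, nearly all of it Krt18, and Krt5 was listed at 0 in every library. Of 5 leukocyte markers, Cd3e and Emr1 (F4/80) were listed at 0 and only Cd68 was above 1 FPKM, and the sum ran from 6.35 to 11.3 without and from 6.72 to 7.57 with Dox. The endothelial markers Pecam1 and Cdh5 summed to 4.25 to 4.75 and to 3.97 to 4.37 FPKM. Of the adipocyte markers, Adipoq was listed at 0 and Fabp4 fell, from between 11.1 and 13.9 to between 5.09 and 8.17 FPKM (adjusted p = 0.0177); its part in the results below was not tested.

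Of the 57 Rab genes, 43 were tested, 9 were below the filter and 5 were listed at 0 in all libraries. Among the 43 tested, 2 rose with Dox and 7 fell, together 20.9%. Among all genes tested 15.0% passed the threshold, 7.06% higher and 7.97% lower. In such bulk samples fewer cells of a kind and less RNA per cell cannot be told apart. The Rab genes that rose were Rab32 and Rab2a, and those that fell were Rab31, Rab12, Rab3a, Rab8b, Rab7, Rab29 and Rab6b. The changes were small, since 8 of the 9 had means less than 1.5-fold apart. The median log2 fold change of the 43 Rab genes was -0.051, against 0.004 for all genes tested. In 4 Rab genes all Plus Dox values were above all Minus Dox values and in 13 all were below, where 17.4% and 17.6% of the 12875 genes tested with all 6 values do so. Single libraries moved these counts. The number of Rab genes that fell was 3 without Minus Dox replicate 2 or Plus Dox replicate 1, 4 without Plus Dox replicate 2 or 3 and 5 without either other library, and only 1 rose without Minus Dox replicate 2 or Plus Dox replicate 2 or 3. Rab31, Rab12 and Rab32 passed under all 15 other settings tried.

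**Figure D1:**
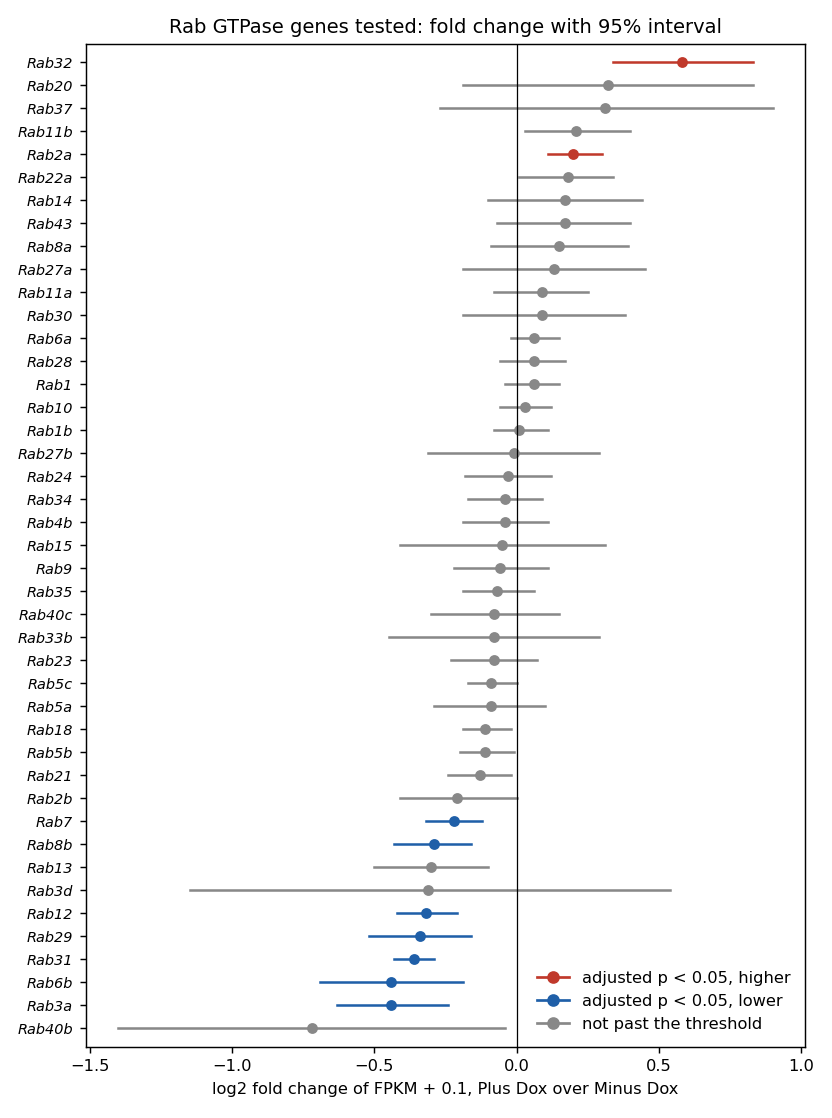
Log2 fold change of FPKM + 0.1 between Plus Dox and Minus Dox (points) with 95% intervals (lines) for the 43 Rab genes tested, in order of change. The 2 genes higher with Dox (red) and 7 lower (blue) are coloured by the adjusted p. The intervals are not adjusted for the number of genes tested. Some grey ones, such as those of Rab11b, Rab13 and Rab40b, are therefore clear of 0.

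Rab31 (ENSMUSG00000056515, chr17:65651729-65772752), a Rab of the trans-Golgi network and early endosomes close to Rab22a, was the abundant Rab with the clearest decrease. It was at 159.4, 157.4 and 157.1 FPKM in the Minus Dox libraries and at 121.7, 125.3 and 122.8 FPKM in the Plus Dox libraries. All libraries with Dox were well below all without. Its mean fell by 21.9%, from 158.0 ± 1.26 to 123.3 ± 1.87 FPKM (SD, n = 3 each; log2 fold change -0.36, standard error (SE) 0.0303, limma adjusted p = 5.7e-04). Among the Rab genes it ranked 3 by level without Dox and 8 with Dox.

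Rab12 (ENSMUSG00000023460, chr17:66494512-66519729), which acts in transport from recycling endosomes to lysosomes, was at 70.8, 71.5 and 70.2 FPKM in Minus Dox against 54.4, 59.8 and 56.5 FPKM in Plus Dox. The groups stood apart, and the mean fell by 19.6% (log2 fold change -0.32, SE 0.0458, adjusted p = 0.00519). Rab7 (ENSMUSG00000079477, chr6:87999106-88045270), the Rab of late endosomes and lysosomes, was at 241, 243 and 228 FPKM in Minus Dox against 214, 197 and 202 FPKM in Plus Dox. It was the Rab gene of highest FPKM in both groups, and its values did not overlap. The mean fell by 13.8% (log2 fold change -0.22, SE 0.0425, adjusted p = 0.0169). The call held in 9 of 15 alternatives and was lost without Minus Dox replicate 1 or 2 or Plus Dox replicate 2 or 3 (adjusted p 0.0548 to 0.0661), and a stretch of 28.8% of its transcript is shared with the pseudogene Rab7-ps1.

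Among the Rabs of exocytosis, Rab8b and Rab3a fell. Rab8b (ENSMUSG00000036943, chr9:66843664-66919687), a relative of Rab8a in transport to the plasma membrane, was at 22.9, 23.9 and 24.0 FPKM in Minus Dox against 18.4, 19.9 and 19.3 FPKM in Plus Dox. The log2 fold change was -0.29 (SE 0.0574, adjusted p = 0.0162), and 11 of 15 alternatives kept the call. It was lost without Minus Dox replicate 2 or 3 or Plus Dox replicate 1 or 3 (adjusted p 0.0527 to 0.057). Rab3a (ENSMUSG00000031840, chr8:70754679-70758677), known from the release of synaptic vesicles, was at 13.0, 15.1 and 13.8 FPKM in Minus Dox against 9.8, 10.4 and 10.6 FPKM in Plus Dox. All values with Dox were lower, and the mean fell by 26.4% (log2 fold change -0.44, SE 0.0819, adjusted p = 0.0141). The call was lost without Plus Dox replicate 1, where its adjusted p was 0.05 after rounding. Exons of Rab3a overlap those of Mpv17l2 on the opposite strand, as do those of Rab7 and Gm5577, Rab11b and Gm17251, and Rab20 and E230013L22Rik. The paper names a stranded library kit, but whether the authors' estimates used strand is not given in the sources used here.

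Rab6b (ENSMUSG00000032549, chr9:103111787-103185276), the relative of Rab6a found mainly in neurons, and Rab29 (ENSMUSG00000026433, chr1:131867224-131872887), a Golgi and lysosome Rab related to Rab32 and Rab38, fell by a narrower margin. Rab6b was at 23.2, 21.2 and 18.8 FPKM in Minus Dox against 14.0, 15.1 and 17.4 FPKM in Plus Dox, so that the closest libraries of the groups lay near each other (log2 fold change -0.44, SE 0.107, adjusted p = 0.0348). Rab29 was at 14.7, 17.1 and 16.3 FPKM in Minus Dox against 13.0, 12.2 and 12.7 FPKM in Plus Dox (log2 fold change -0.34, SE 0.0767, adjusted p = 0.0274). Neither overlapped between groups. The calls were kept in 7 and 8 of 15 alternatives. Rab6b lost its call without Minus Dox replicate 1 or 2 or Plus Dox replicate 1 or 2 (adjusted p 0.0945 to 0.106), and Rab29 without Minus Dox replicate 2 or 3 or any Plus Dox library (0.062 to 0.0925).

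Rab32 (ENSMUSG00000019832, chr10:10545002-10558265), which with Rab38 serves melanosomes and other lysosome-related organelles and also binds mitochondria, was the Rab gene that rose most among those past the test. It was at 4.81, 4.28 and 4.5 FPKM in Minus Dox against 6.69, 7.14 and 6.68 FPKM in Plus Dox. Every library with Dox exceeded every library without. The mean went from 4.53 ± 0.27 to 6.84 ± 0.264 FPKM (SD, n = 3 each), a ratio of 1.51, with a log2 fold change of 0.58 (SE 0.102, adjusted p = 0.0108). Its relative Rab38 was below the filter, at 0.799 to 1.13 FPKM without and 0.559 to 0.765 FPKM with Dox (adjusted p = 0.551 without the filter).

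Rab2a (ENSMUSG00000047187, chr4:8535644-8607778), which works between the endoplasmic reticulum and the Golgi, was at 91.4, 87.9 and 94.8 FPKM in Minus Dox against 103, 105 and 107 FPKM in Plus Dox. The groups did not overlap, but the step was small, with a mean 14.9% higher (log2 fold change 0.2, SE 0.0401, adjusted p = 0.0176). The call was lost without Minus Dox replicate 2 or Plus Dox replicate 2 or 3 (adjusted p 0.0538 to 0.0689). A stretch of 29.8% of its transcript is shared with the pseudogene Gm5865.

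**Figure D2:**
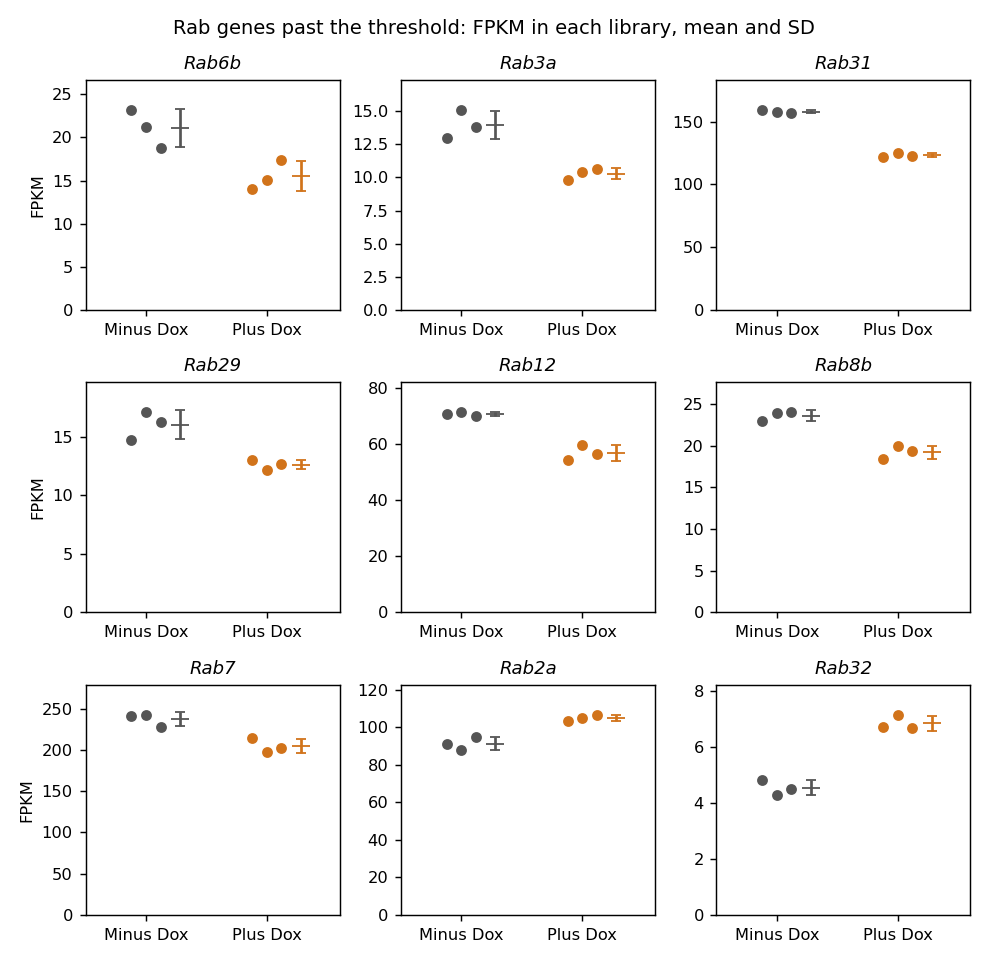
FPKM of the 9 Rab genes past the threshold in each of the 3 Minus Dox (grey) and 3 Plus Dox (orange) libraries, each panel from 0, with the mean and SD beside the points. In all 9 panels the points of the groups do not overlap, and in Rab6b the nearest libraries of the groups, at 18.8 and 17.4 FPKM, lie close together.

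The epithelial Rabs did not pass the test. Rab25 (ENSMUSG00000008601, chr3:88542029-88548300) was at 0, 0.378 and 0 FPKM in Minus Dox against 0, 0.42 and 0.307 FPKM in Plus Dox. It was listed at 0 in both groups and its highest values were alike, with a log2 fold change of 0.72 and a 95% interval from -1.42 to 2.86 (adjusted p = 0.692 in limma without the filter), which leaves room for a large change in either direction. Rab17 (ENSMUSG00000026304, chr1:90958133-90969661), a Rab of apical recycling in polarised epithelia, was at 0.195, 0.224 and 0.885 FPKM in Minus Dox against 0.784, 0.375 and 0.311 FPKM in Plus Dox. Its groups overlapped, with an interval of the log2 fold change from -1.14 to 1.72 (adjusted p = 0.816). Rab20 (ENSMUSG00000031504, chr8:11453518-11478710), found in endosomes of epithelial cells and of macrophages, was the only one of the 3 that was tested with the filter. It was at 4.77, 5.34 and 3.32 FPKM in Minus Dox against 6.68, 4.6 and 5.43 FPKM in Plus Dox. The ranges overlapped, with a log2 fold change of 0.32 (95% interval -0.19 to 0.83, adjusted p = 0.38). In the same libraries Epcam, an epithelial surface gene, went from between 0.0844 and 0.161 to between 3.88 and 4.31 FPKM, and Crb3, an apical polarity gene, from a listed 0 in all 3 to between 2.06 and 4.31 FPKM. Both reached the filter only through the Plus Dox libraries, so these are given as values with no test. Crb3 was not in the fixed marker list. Of the other markers in that list, Krt8, Krt18 and Cdh1 also had all Plus Dox values above all Minus Dox values. Krt14 overlapped between the groups, and Krt5 was listed at 0 in every library.

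The Rab11 genes, the ubiquitous relatives of Rab25, were far more abundant per length. Rab11a (ENSMUSG00000004771) was at 173, 164 and 158 FPKM in Minus Dox against 194, 169 and 164 FPKM in Plus Dox, so that the groups overlapped (log2 fold change 0.09, 95% interval -0.08 to 0.25, adjusted p = 0.465). Rab11b (ENSMUSG00000077450) was at 38.3, 41.4 and 33.7 FPKM in Minus Dox against 45.5, 42.1 and 43.6 FPKM in Plus Dox. All 3 libraries with Dox were higher, yet the difference missed the threshold (log2 fold change 0.21, 95% interval 0.03 to 0.4, adjusted p = 0.127). Of its transcript 13.2% is shared with other genes. The pseudogene Rab11b-ps2, which holds 10.7% of it, was itself listed at 72.9 to 78.9 FPKM without and 81.8 to 102 FPKM with Dox.

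**Figure D3:**
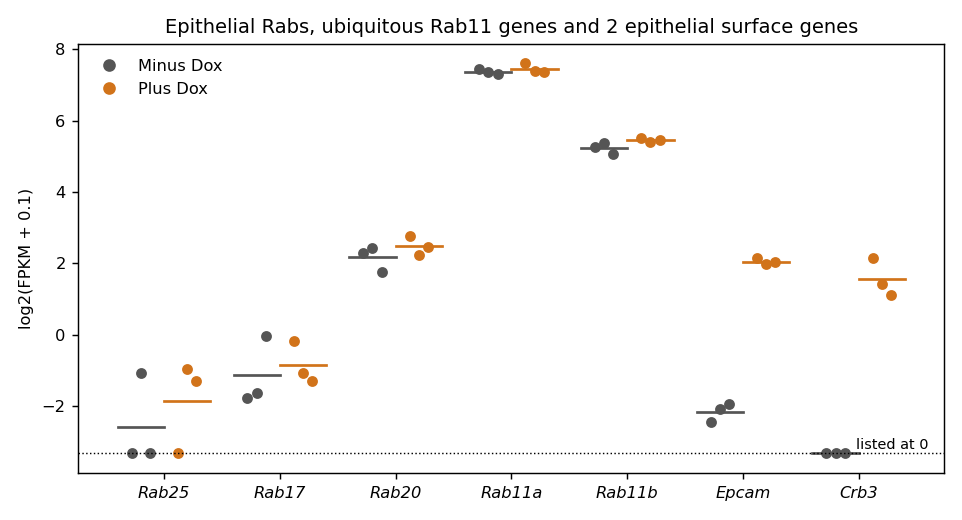
log2(FPKM + 0.1) of the epithelial Rabs Rab25, Rab17 and Rab20, of Rab11a and Rab11b, and of Epcam and Crb3, in each Minus Dox (grey) and Plus Dox (orange) library, with the mean of each group as a bar. Epcam and Crb3 separate by group, the 3 epithelial Rabs overlap, and Rab11a lies above all of them in both groups. Of the epithelial markers not drawn, Krt8, Krt18 and Cdh1 separate too, whereas Krt14 does not.

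All 18 ubiquitous Rabs were tested. Rab2a rose, Rab7 fell and 16 did not pass, so that 11.1% were called beside 15.0% of all genes tested, and their median log2 fold change was 0.021 beside 0.004. They made up 72.4, 72.4 and 72.1% of the summed Rab FPKM without Dox and 74.8, 74.6 and 74.2% with Dox. The share was a little higher in each Plus Dox library, while their sum was much the same (1780 to 1847 against 1802 to 1844 FPKM) and the sum over all Rab genes was 2469 to 2553 FPKM without Dox and 2421 to 2464 with Dox. The epithelial class made up 0.17 to 0.238% without and 0.223 to 0.303% with Dox, ranges that overlap. The 4 tested Rabs of regulated secretion, Rab27a, Rab27b, Rab3d and Rab37, did not pass, at log2 fold changes from -0.31 to 0.31. Of 6 Rabs known mainly from neurons, the 2 that were tested, Rab3a and Rab6b, fell, and Rab9b and Rab33a were below the filter while Rab3c and Rab39b were listed at 0. Of 18 tested Rabs in no such class, 1 rose and 4 fell. The classes were set from general knowledge, and this is a description of few genes.

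The calls by place in the cell rest on a few genes per route and are read beside the 15.0% of all genes that passed and the 17.4% and 17.6% without overlap. Of 7 early endosome Rabs only Rab31 passed, while Rab5a, Rab5b, Rab5c, Rab21, Rab22a and Rab20 did not; Rab5b, Rab5c and Rab21 had all Plus Dox values below all Minus Dox values without passing (adjusted p 0.115 to 0.166), and Rab22a had all of them above (0.144). Of 4 Rabs between the endoplasmic reticulum and the Golgi only Rab2a passed, and Rab1 and Rab1b, which drive that step, had log2 fold changes of 0.06 and 0.01. Of 6 tested Golgi Rabs only Rab6b passed, of 7 tested recycling Rabs only Rab12, and of 3 tested late endosome Rabs only Rab7. Of 9 tested exocytosis Rabs Rab3a and Rab8b passed, and of 2 tested Rabs of lysosome-related organelles both did, Rab32 higher and Rab29 lower. Rab13, an exocytosis Rab of tight junctions, was at 22.3, 19.3 and 21.1 FPKM in Minus Dox against 18.6, 15.8 and 16.7 FPKM in Plus Dox, just short of the threshold (log2 fold change -0.3, adjusted p = 0.0602). The ciliary Rabs Rab23 and Rab28 did not pass.

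By the mean over both groups, the 5 Rab genes of highest FPKM were Rab7, Rab11a, Rab31, Rab5c and Rab10. Rab5c, a Rab of early endosomes, was at 145, 140 and 138 FPKM in Minus Dox against 130, 136 and 134 FPKM in Plus Dox (log2 fold change -0.09, adjusted p = 0.166). Rab10, which carries cargo to the basolateral membrane and to the cell surface, was at 135, 129 and 139 FPKM in Minus Dox against 137, 136 and 138 FPKM in Plus Dox (log2 fold change 0.03, adjusted p = 0.678). Rab7 stood above all others in every library, whereas Rab5c, Rab10 and Rab14 overlapped and their order does not exceed their spread. With Dox alone Rab14 ranked 3. In all, 11 of the 43 tested Rab genes had means of at least 100 FPKM and 35 of at least 10 FPKM.

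Close relatives were compared within each library as ratios of FPKM, a description with pairs chosen after values were seen. The ratio of Rab22a to Rab31 was 0.2, 0.172 and 0.185 without Dox and 0.266, 0.262 and 0.28 with Dox. The ratio of Rab32 to Rab29 was 0.327, 0.251 and 0.276 without Dox and 0.517, 0.585 and 0.526 with Dox. In both pairs the ratio shifted away from the member that fell, without overlap. There was no overlap either in the Rab2a to Rab2b ratio (6.49 to 7.62 against 9.13 to 9.95), the Rab6a to Rab6b ratio (4.46 to 5.63 against 6.32 to 7.55) and the Rab8a to Rab8b ratio (3.67 to 4.26 against 4.72 to 6.51), in the last 2 of which the ubiquitous partner did not pass the test (Rab6a adjusted p = 0.3, Rab8a 0.383). Rab2b did not pass either (adjusted p = 0.171). The other 8 of 13 pairs overlapped, among them Rab11a to Rab11b, Rab1 to Rab1b and the 3 Rab5 pairs. Each of the 5 pairs without overlap holds a Rab gene past the threshold. These ratios therefore restate those calls in part, and the share among other gene pairs was not computed.

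**Figure D4:**
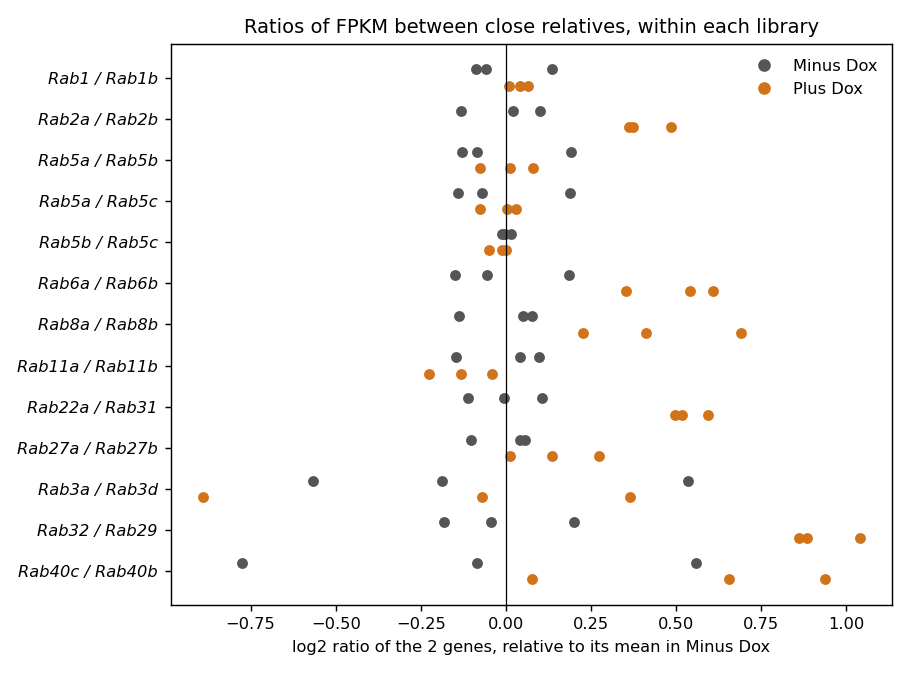
Ratio of FPKM between 2 related Rab genes within each library, on a log2 axis relative to the mean ratio in Minus Dox, for 13 pairs. Grey points are Minus Dox and orange points Plus Dox libraries; in the Rab2, Rab6, Rab8, Rab22a with Rab31 and Rab32 with Rab29 pairs the orange points lie to the right of all grey points.

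Sites for the miR-200c seed were set beside the calls. Of the 10792 genes tested with a 3′ UTR, 16.0% had at least 1 CAGTATT, as did 31.0% of those lower and 8.4% of those higher with Dox. Among the Rabs, 2 of the 7 that fell had a site, Rab7 and Rab8b, each with 1. The other 5, Rab31, Rab12, Rab3a, Rab29 and Rab6b, had none in the 3′ UTR searched, nor had Rab32 or Rab2a. A longer 3′ UTR has more room for a match, and the shares above were not adjusted for length. The length searched was 307 bases in Rab29, 589 in Rab3a, 1178 in Rab12, 2677 in Rab31 and 4030 in Rab6b. It was 1329 bases in Rab7 and 4055 in Rab8b. Of 34 Rab genes tested that did not pass, 6 had a site. Among these, Rab35 and Rab22a had 2 sites each. Rab35 was at 77.6, 86.4 and 80.7 FPKM in Minus Dox against 74.7, 79.1 and 79.7 FPKM in Plus Dox (log2 fold change -0.07, limma adjusted p = 0.451). Rab22a was at 31.9, 27.0 and 29.1 FPKM in Minus Dox against 32.4, 32.8 and 34.4 FPKM in Plus Dox (log2 fold change 0.18, limma adjusted p = 0.144). The others had log2 fold changes of -0.13 (Rab21), -0.11 (Rab5b), -0.01 (Rab27b) and 0.31 (Rab37). A site is therefore found in Rab genes with and without a call. The printed site of Rab8b is followed by A, those of Rab7 and the second of Rab35 by C, and the first of Rab35 by T.

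The E-box of the printed promoters was found in 20.2% of all 32851 promoter windows, and in 10 of the 48 Rab genes matched to a window (20.8%; 22.6% of all genes with one). Rab25 and Rab23 had 2 matches, which 2.88% of all windows have at least. The others were Rab15, Rab17, Rab19, Rab22a, Rab27a, Rab3a, Rab5c and Rab9, of which only Rab3a passed the test. The window of the epithelial Rab20 had no match. Rab18, Rab26, Rab27b, Rab2a, Rab30, Rab36, Rab37, Rab38 and Rab44 were not matched to a window.

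Regulators and effectors of Rabs were followed through a list of 134 genes, of which 112 were tested. Of these 14 rose and 9 fell, together 20.5%, beside 7.06% higher and 7.97% lower among all genes, and their median log2 fold change was -0.008 against 0.004 for all genes. Among exchange factors 5 rose and 5 fell of 33 tested, among GTPase activating proteins 4 rose and 2 fell of 34, among effectors 4 rose and 1 fell of 37, and among the genes of prenylation and GDP dissociation Rabac1 rose. The count of those that fell was 3 to 6 with 1 library left out. It was 5 without Minus Dox replicate 1 and 4 without either other Minus Dox library, 3 without Plus Dox replicate 1 and 4 without Plus Dox replicate 3. That of those that rose was 9 without Plus Dox replicate 2 and 6 without Plus Dox replicate 3.

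The exchange factor Dennd5a, a DENN domain protein that binds Rab6, had the clearest decrease in the list. It was at 94.5, 90.7 and 91.4 FPKM in Minus Dox against 47.9, 49.9 and 46.2 FPKM in Plus Dox (log2 fold change -0.94, adjusted p = 5.03e-05). Sbf1, another DENN protein, fell from 113, 106 and 106 to 83.9, 77.9 and 77.3 FPKM (log2 fold change -0.45, adjusted p = 0.00155). The groups of both stood well apart. Of the Rin proteins, which activate Rab5 and its relatives, Rin2 was at 33.9, 29.6 and 24.5 against 20.6, 22.8 and 20.6 FPKM (log2 fold change -0.45, adjusted p = 0.045), a call kept in 6 of 15 alternatives and lost on leaving out any library but Minus Dox replicate 3 (adjusted p 0.0824 to 0.132). Rin3, which also acts on Rab31, was at 24.3, 24.4 and 20.9 against 29.7, 30.2 and 31.2 FPKM (log2 fold change 0.39, adjusted p = 0.0135, and 0.0574 without Plus Dox replicate 3). The Rin genes went in opposite directions, Rin1 and Rin2 down and Rin3 up. For Rin1 the log2 fold change was -0.21, and the call was kept in 9 of 15 alternatives.

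Als2cl, listed with the exchange factors, rose from 6.15, 5.06 and 5.01 to 16.0, 15.1 and 16.2 FPKM (log2 fold change 1.53, adjusted p = 2.15e-04). Madd, the exchange factor of Rab3 proteins, was at 7.21, 9.74 and 7.18 against 14.1, 12.3 and 12.6 FPKM (log2 fold change 0.7, adjusted p = 0.0154), and lost the call without Minus Dox replicate 3 or Plus Dox replicate 1 or 3 (adjusted p 0.0521 to 0.0563). For both the Plus Dox values lay above all Minus Dox values. St5, which acts on Rab13, was at 3.0, 3.02 and 3.27 against 4.33, 4.23 and 4.91 FPKM (log2 fold change 0.52, adjusted p = 0.0399), a call kept in 6 of 14 alternatives and lost whichever library was left out (adjusted p 0.0715 to 0.135). The GTPase activating protein Tbc1d2 (Armus), which acts on Rab7, was at 1.17, 1.05 and 0.912 against 4.0, 3.32 and 3.42 FPKM (log2 fold change 1.69, adjusted p = 0.00255). It had the largest log2 fold change of the tested partners past the threshold.

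Among effectors, Rph3al, which binds Rab3 and Rab27 proteins on secretory granules, was at 1.21, 0.922 and 1.34 FPKM in Minus Dox against 4.15, 3.6 and 3.66 FPKM in Plus Dox (log2 fold change 1.65, adjusted p = 0.00325). Optn, which binds Rab8, rose from 10.2, 10.3 and 10.0 to 19.2, 19.1 and 20.2 FPKM (log2 fold change 0.93, adjusted p = 2.13e-04). For both genes the groups lay far apart. The values of Optn were tight within each group, whereas those of Rph3al without Dox spread more and lay near the filter. Rab11fip1, which binds Rab11 proteins and Rab25, was at 4.46, 4.13 and 3.88 against 5.42, 6.06 and 6.41 FPKM (log2 fold change 0.51, adjusted p = 0.0318), a call kept in 8 of 15 alternatives and lost on leaving out any library but Plus Dox replicate 1 (adjusted p 0.0507 to 0.114). Rilpl1, a RILP-like protein that binds Rab8 and Rab10, was at 18.8, 15.4 and 15.2 against 11.8, 12.1 and 13.2 FPKM (log2 fold change -0.41, adjusted p = 0.0366), a call kept in 5 of 15 alternatives and lost whichever library was left out (adjusted p 0.0558 to 0.111). Rab11fip4, another Rab11 effector, was below the filter at 0.0554, 0.0602 and 0.0423 against 1.46, 0.686 and 0.657 FPKM, with all Plus Dox libraries higher. It was named after its values were seen, so these are given with no test. Below the filter, Exph5 (higher with Dox) and Ehbp1l1 (lower with Dox) also did not overlap between the groups. Smaller changes, of 0.21 to 0.38 on the log2 scale, were found for Tbc1d25, Tbc1d4, Ankrd27, Tbc1d14, Rabac1 and Rab11fip5, which rose, and for Dennd6a, Evi5, Rabgap1 and Rin1, which fell. Of these, Rabac1, Rab11fip5 and Evi5 passed in all 15 alternatives. Tbc1d4 and Tbc1d14 kept the call in 13, Tbc1d25 and Rabgap1 in 10, Rin1 in 9, Ankrd27 in 7 and Dennd6a in 6.

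**Figure D5:**
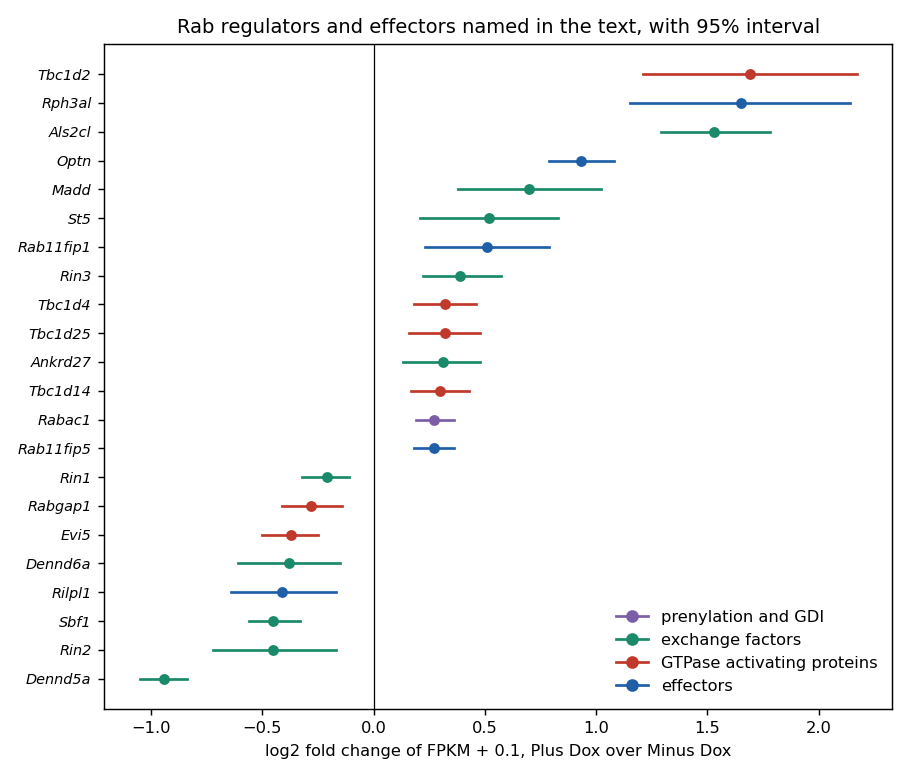
Log2 fold change of FPKM + 0.1 between Plus Dox and Minus Dox (points) with 95% intervals (lines) for the Rab regulators and effectors past the threshold that are named in the text, coloured by kind. Tbc1d2, Rph3al and Als2cl lie above 1 and Dennd5a is the lowest, at -0.94.

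The other Rab genes tested, which lie at several steps of these routes, did not pass. Rab14, a Rab of the Golgi and recycling endosomes, was at 151, 126 and 107 FPKM in Minus Dox against 141, 143 and 144 FPKM in Plus Dox, so that the Plus Dox libraries lay within the wide Minus Dox range (adjusted p = 0.377). Rab18, a Rab of the endoplasmic reticulum and lipid droplets, had all Plus Dox values (103 to 106 FPKM) below all Minus Dox values (110 to 117 FPKM) without passing (adjusted p = 0.111). Rab34, Rab24, Rab15, Rab30, Rab33b, Rab40c, Rab43, Rab4b, Rab5a and Rab9 had log2 fold changes from -0.09 to 0.17, and overlapped between the groups.

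Some Rab genes were below the filter or listed at 0. Rab44, a large atypical Rab of immune cells, was at 0.0593, 0.172 and 0.166 FPKM in Minus Dox against 0.0399, 0.0531 and 0.0351 FPKM in Plus Dox. Its values did not overlap, but it was below the filter and did not pass without it (log2 fold change -0.66, 95% interval -1.35 to 0.02, adjusted p = 0.255). Rab3b, Rab9b, Rab19, Rab26, Rab33a and Rab38 were the others below the filter besides Rab17 and Rab25, with group means from 0 to 0.928 FPKM. Rab36, Rab39, Rab39b, Rab3c and Rab42 were listed at 0 in every library, which without read counts does not show that they were not expressed. Rab40b had the largest estimate among tested Rabs, a log2 fold change of -0.72, but its libraries overlapped (8.22, 11.7 and 6.01 against 6.97, 4.59 and 3.91 FPKM, adjusted p = 0.148). Rab4a was not analysed here, and the gene known as Rab7b stands in the table under the symbol 5430435G22Rik, outside the rule.

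The values of some Rabs are uncertain because part of their transcript is found in another annotated gene, at 95% identity or more over at least 50 bases. This held for 90.5% of the transcript of Rab43 and 85.2% of that of Rab4b, both shared with an overlapping gene model, and for 41.9% of that of Rab9. Pseudogene copies can take reads from the parent, and the table lists Gm13082, a copy of 17.3% of the Rab6a transcript, at 72.1 to 80.7 FPKM, and Gm13991, a copy of 20.4% of that of Rab5b, at 34.7 to 40.5 FPKM. Neither Rab6a nor Rab5b passed the test. Of the Rab genes past it, only Rab7, Rab2a and Rab8b (8.7%) shared at least 5% of their transcript, and of the partners named, only Evi5 (5.85%) did. For Rab8b the largest stretch, 5.89%, lies in Gm20689, listed at 43.5 to 59.6 FPKM without and 33.1 to 48.4 FPKM with Dox.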

How the data were processed

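The authors prepared mRNA libraries with a stranded Illumina kit, aligned the single-end reads by gSNAP and quantified genes by Cufflinks. The deposited values are FPKM per gene and library. The labels name GRCm38, while the paper's methods also name an FVB/NJ assembly for the mapping. The sequences and coordinates given here are those of the GRCm38 reference and may differ from those of the cells. The deposited fold score, p-value and q-value columns hold the authors' own comparison and were not used, and 0 columns of per-sample values were left over. Of 43611 rows, 63 repeated identifiers were dropped, keeping the highest mean, and a placeholder in 6 cells of 4 genes, none of them a Rab, was treated as missing.

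Groups and replicate numbers came from the sample labels, which give DMEM for growth, RPMI for the treatment and 48 h; the paper's methods name DMEM for maintenance, and a figure legend points to cells treated for longer. Cells were plated in triplicate, so the spread between libraries may be technical. Genes whose mean reached 1 FPKM were compared in R 4.3.3 by limma 3.58.1 (lmFit, eBayes with a variance trend) on log2(FPKM + 0.1) with Benjamini-Hochberg adjustment and a threshold of 0.05; genes below the filter came from the same model without it. The model was also run on simulated data with independent normal noise on the log scale and the spread of each gene. That is close to what the model assumes, so the run does not test these assumptions for the libraries used here. With 3 libraries against 3, single genes were tested with limma only. Alternatives were pseudocounts of 1 and 0.01, no filter, a minimum of 5 FPKM, quantile normalization, median scaling, no variance trend, an unmoderated model, the replicate number as a block, and each library left out in turn.

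The Rab genes named are those past the threshold, Rab17, Rab20, Rab25, Rab11a, Rab11b, the 5 of highest FPKM, and those without overlap and with means at least 1.5-fold apart; of the tested partners past the threshold, the 12 with the largest change have values. A partner that counts among those past the threshold is not reported here by name. Rab13, Rab14, Rab18, Rab35, Rab38, Rab40b and other Rab genes with values were named after these were seen. The members, gene lists and classes were chosen with earlier results of these data known. MicroRNA and promoter sequences are those of RefSeq (GRCm38.p6), and 3′ UTRs those of GENCODE (GRCm38). Transcripts were compared with BLAST 2.17.0.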

Additional observations from a re-analysis of the deposited data

How the results depend on the processing

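Of the 9 Rab calls, 3 (Rab31, Rab12 and Rab32) passed under all 15 alternatives and 6 were lost under at least 1; no call changed direction. Without the variance trend the count of Rab genes that rose was 1 instead of 2, and the unmoderated model left 4 that fell instead of 7. With 1 library left out, 1 to 2 Rab genes rose and 3 to 5 fell, and 6 to 12 of the partners rose (14 with all libraries) and 3 to 6 fell (9 with all). The counts were lowest without Minus Dox replicate 2 for the Rabs, with 1 higher and 3 lower. The count of partners that fell was 5 with no filter, 5 without the variance trend, 5 in the unmoderated model and 4 with the replicate block. The causes were not tested. With the replicate number as a block, 2 Rab genes rose and 6 fell, Rab13 gained the call, and Rab29 and Rab6b lost it; 11 partners rose. The numbers are shared by the groups, but deviations of same-numbered libraries correlated at 0.0287, 0.0359 and -0.00759, and Minus Dox replicate 3 correlated best with Plus Dox replicate 1, so they were not taken as pairs. Read depth is unknown, so no interval for counting error could be given for low genes such as Rab25 and Rab17. Pseudocounts, quantile normalization, median scaling and the minimum of 5 FPKM kept all 9 Rab calls.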
